A study of Sus scrofa with 50 samples.

Results

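A set of 9 genes of adipose hormone signalling were followed through RNA sequencing of Korean minipigs (Sus scrofa): 6 adipokines, the proteins that fat releases into blood, and 3 receptors. The adipokines were leptin (LEP), adiponectin (ADIPOQ), adipsin (CFD), retinol-binding protein 4 (RBP4), chemerin (RARRES2) and NAMPT, and the receptors were the leptin receptor (LEPR) and the adiponectin receptors ADIPOR1 and ADIPOR2. They were found as assembled transcripts whose best protein match, at an E value of at most 1e-10, was the Swiss-Prot entry of that protein. This gave 15 of the 57085 transcripts, summed to 9 of 14412 genes. Animals of the ET type (S0235, S0242, S0276, S0309 and S0326) and of the L type (S0349, S0355, S0377, S0384 and S0385) were each sampled in backfat, brain, loin, lymph and tenderloin. That made 50 libraries in 10 groups of 5. The labels give the type, tissue and animal number, no age, sex or treatment, and do not spell out ET or L, so the types are compared as labelled. Levels are TPM (length-scaled transcript abundance), a share of the transcripts in a library, so they can be set side by side between genes. TPM keeps no read depth, which is therefore unknown, and precision comes from the spread between animals.

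Leptin is released by fat cells in proportion to stored fat and acts on hypothalamic neurons through LEPR, a cytokine receptor that signals through JAK2 and STAT3. Adiponectin, the most abundant fat hormone in blood, acts through ADIPOR1 and ADIPOR2, which feed AMP-activated kinase and PPARA and favour lipid oxidation, and its level usually falls as fat mass rises. Adipsin is complement factor D, the protease that starts the alternative complement pathway. RBP4 carries retinol in plasma, chemerin attracts immune cells through CMKLR1, and NAMPT makes the precursor of NAD in every cell and is also secreted.

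Of the 50 libraries, 5 went against their tissue label and were left out: backfat, loin and brain of S0355 and lymph and brain of S0235. The backfat library of S0355 held 23749 TPM of the muscle enzyme CKM, where the 9 kept backfat libraries held at most 97.9, and its loin library held ADIPOQ at 1139 TPM. CD3E, a T cell marker, stood at 3.13 TPM in lymph of S0235 and at 406 to 750 in the 9 other lymph libraries. The brain libraries of S0235 and S0355 held the myelin gene MBP at 30538 and 37999 TPM, and the 8 kept ones at 16.0 to 80.1. The kept brain libraries held pituitary hormones, with POMC at 5271 to 77973 TPM and PRL at 805 to 40121, so "brain" is only the label. Whether the muscle-like backfat and the fat-like loin library of S0355 were exchanged was not tested. The comparisons below therefore rest on 45 libraries: 5 ET and 4 L in backfat and loin, 4 and 4 in brain, 4 and 5 in lymph, and 5 and 5 in tenderloin. The labels do not state whether animals were littermates.

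The transcripts differed in how much of each protein they covered. LEP was read from 1 transcript of 4568 bases that matched residues 1 to 167 of the pig protein at 100% identity. Its gene lies on chromosome 18 at 20106867 to 20124071 in RefSeq's Sscrofa11.1 annotation. ADIPOQ (chromosome 13, 124633906 to 124646237) came from 1 transcript matching residues 25 to 238 of the bovine entry at 88.8% identity. LEPR (chromosome 6, 146802297 to 146896152) came from 1 transcript matching residues 1 to 890, whose reading frame ends 34 residues after the single predicted membrane helix at residues 839 to 861. The leptin receptor exists in forms with a long or a short intracellular tail, and only the long one carries the STAT3 docking site. The reading frame of this 1 transcript has a short tail. Whether reads of the long form counted toward it was not tested, so the LEPR levels do not tell the forms apart. The single transcripts of ADIPOR1 (chromosome 10, 24907491 to 24923540) and ADIPOR2 (chromosome 5, 68755789 to 68807247) each had 7 predicted membrane helices, as the receptor family has.

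The other adipokines had 2 or 3 transcripts each, with 1 that carried most of the TPM. That share was 93.7% for CFD (chromosome 2, 77509792 to 77511988), 95.9% for RBP4 (chromosome 14, 105037360 to 105044552), 86.6% for RARRES2 (chromosome 18, 55903693 to 55906976) and 99.2% for NAMPT (chromosome 9, 106119896 to 106162126). Several matches were partial. The main RBP4 transcript matched residues 81 to 201, the ADIPOR2 transcript residues 58 to 386, and the minor CFD transcripts residues 120 to 256 and 120 to 206. The backfat means of the minor CFD transcripts were 37.6 and 2.14 TPM in ET animals and 52.8 and 6.46 in L animals, while the main CFD transcript averaged 960 and 736.

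Over both types together, LEP, ADIPOQ, CFD and ADIPOR2, 4 of the 9 genes, were called higher in backfat than in each of the other tissues (7.27% of all 13445 genes tested were). A gene was called in limma when its p, adjusted over all genes tested, was under 0.05. For LEP and ADIPOR2 this order was that of the ET animals: L backfat held LEP at no more than 0.0281 TPM, and ADIPOR2 averaged 54.4 ± 30.1 TPM in L backfat, 76.0 ± 34.2 in L tenderloin and 53.3 ± 12.9 in L loin (SD, n = 4, 5 and 4). Outside backfat LEP was listed at 0 in 24 of 36 libraries and reached at most 0.0587 TPM. ADIPOQ averaged 1883 ± 2220 TPM in backfat (SD, n = 9), where it ranked 70 among all genes, and 0.722 ± 1.09 in tenderloin (n = 10), the next tissue. Its backfat level lay 9.24 to 9.77 log2 units above the other tissues, and no contrast among those 4 was called.

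CFD was not confined to fat. It averaged 909 ± 192 TPM in backfat (n = 9) and 592 ± 237 in lymph (n = 9), which differed by 0.63 on the log2 scale (SE 0.27, adjusted p = 0.0334). With the animal as a replicate block that call was lost (0.59, adjusted p = 0.0507), and it was also lost without any 1 of the animals S0276, S0309, S0355 and S0377 (adjusted p 0.0905, 0.0667, 0.0628 and 0.0550). Loin (109 ± 70.4, n = 9) and tenderloin (100.8 ± 46.7, n = 10) followed and did not differ beyond their spread (log2 difference -0.04, SE 0.26, adjusted p = 0.972). Brain was lowest at 40.5 ± 18.2 (n = 8). The 3 entries whose level ran closest to CFD over the 45 libraries were EPCR (r = 0.93), CD209, a lectin of macrophages and dendritic cells (0.93), and CA054 (0.92). Which cells gave CFD in each tissue was not tested.

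RBP4 and RARRES2 were shared between backfat and other tissues. RBP4 averaged 114 ± 81.7 TPM in brain (n = 8) and 85.7 ± 71.3 in backfat (n = 9), a difference of -0.37 for backfat minus brain (SE 0.46, adjusted p = 0.463) that turned to 0.35 under median-ratio scaling. Its mean was at most 0.347 TPM in the other 3 tissues. Brain RBP4 fell into separate levels: 8.55 TPM in ET animal S0326 and 12.6 in L animal S0384, against 95.7 to 241 in the other 6. These 2 libraries also held the lowest LEPR and NAMPT of brain in their types and the highest CFD, RARRES2 and ADIPOR1. They also held the lowest PRL, at 1331 and 805 TPM against at least 10310 in the other 6. CGA was lowest there too, at 3690 and 2085 against at least 5390, as was MBP, at 16.0 and 28.8 against 51.1 to 80.1. POMC went the other way and was the highest of its type in both. It stood at 77973 TPM in S0326 and 21736 in S0384, against 5271 to 22387 in the other 6. The part of cell makeup in these levels was not tested. RARRES2 followed the order backfat (199.7 ± 75.3), lymph (129 ± 49.9), brain (69.7 ± 25.4), tenderloin (44.0 ± 24.6) and loin (19.7 ± 12.4). Backfat and lymph did not differ in it beyond their spread (0.55, SE 0.27, adjusted p = 0.0682), but backfat was called higher under scaling (0.76, adjusted p = 0.0181) and without S0349 or S0385 (adjusted p 0.0271 and 0.0130). Brain was called above tenderloin (0.73, adjusted p = 0.0137) as deposited but below it (-0.74, adjusted p = 0.0197) after scaling.

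NAMPT was most abundant in muscle. Its means were 151 ± 122 TPM in loin, 57.5 ± 22.5 in tenderloin, 31.0 ± 17.5 in backfat, 27.0 ± 7.10 in brain and 14.6 ± 5.04 in lymph. Loin exceeded tenderloin by 1.11 (SE 0.28, adjusted p = 0.00359), and backfat and brain did not differ (0.11, SE 0.30, adjusted p = 0.750). Under scaling backfat was called above brain (0.82, adjusted p = 0.00784), and brain was no longer called above lymph (0.35, adjusted p = 0.250).

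Among the receptors, LEPR was most abundant in the pituitary-type brain libraries (11.3 ± 4.87 TPM, n = 8), above each other tissue by at least 2.23 on the log2 scale. It averaged 2.12 ± 5.41 in backfat, 1.64 ± 1.07 in tenderloin, 1.199 ± 0.978 in loin and 0.404 ± 0.246 in lymph. The backfat mean came from 1 animal, S0309, without which backfat was called below tenderloin (-0.84, adjusted p = 0.00265). ADIPOR1 was broad, at 85.5 ± 20.9 TPM in loin and 46.4 ± 7.17, 45.4 ± 16.4 and 43.3 ± 17.4 in tenderloin, brain and backfat, 3 tissues that did not differ beyond their spread. After scaling, brain ADIPOR1 was called below backfat (backfat minus brain 0.62, adjusted p = 0.000755) and tenderloin (brain minus tenderloin -1.55, adjusted p = 5.24e-12). Lymph was lowest at 29.5 ± 3.82. ADIPOR2 stood at 333 ± 315 TPM in backfat, 59.5 ± 32.2 in tenderloin, 46.9 ± 13.1 in loin, 29.1 ± 3.996 in brain and 23.6 ± 2.94 in lymph. Backfat exceeded tenderloin by 1.75 (SE 0.42, adjusted p = 0.000235) over both types, with means of 556 against 43.0 TPM in ET animals and 54.4 against 76.0 in L animals.

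**Figure D1:**
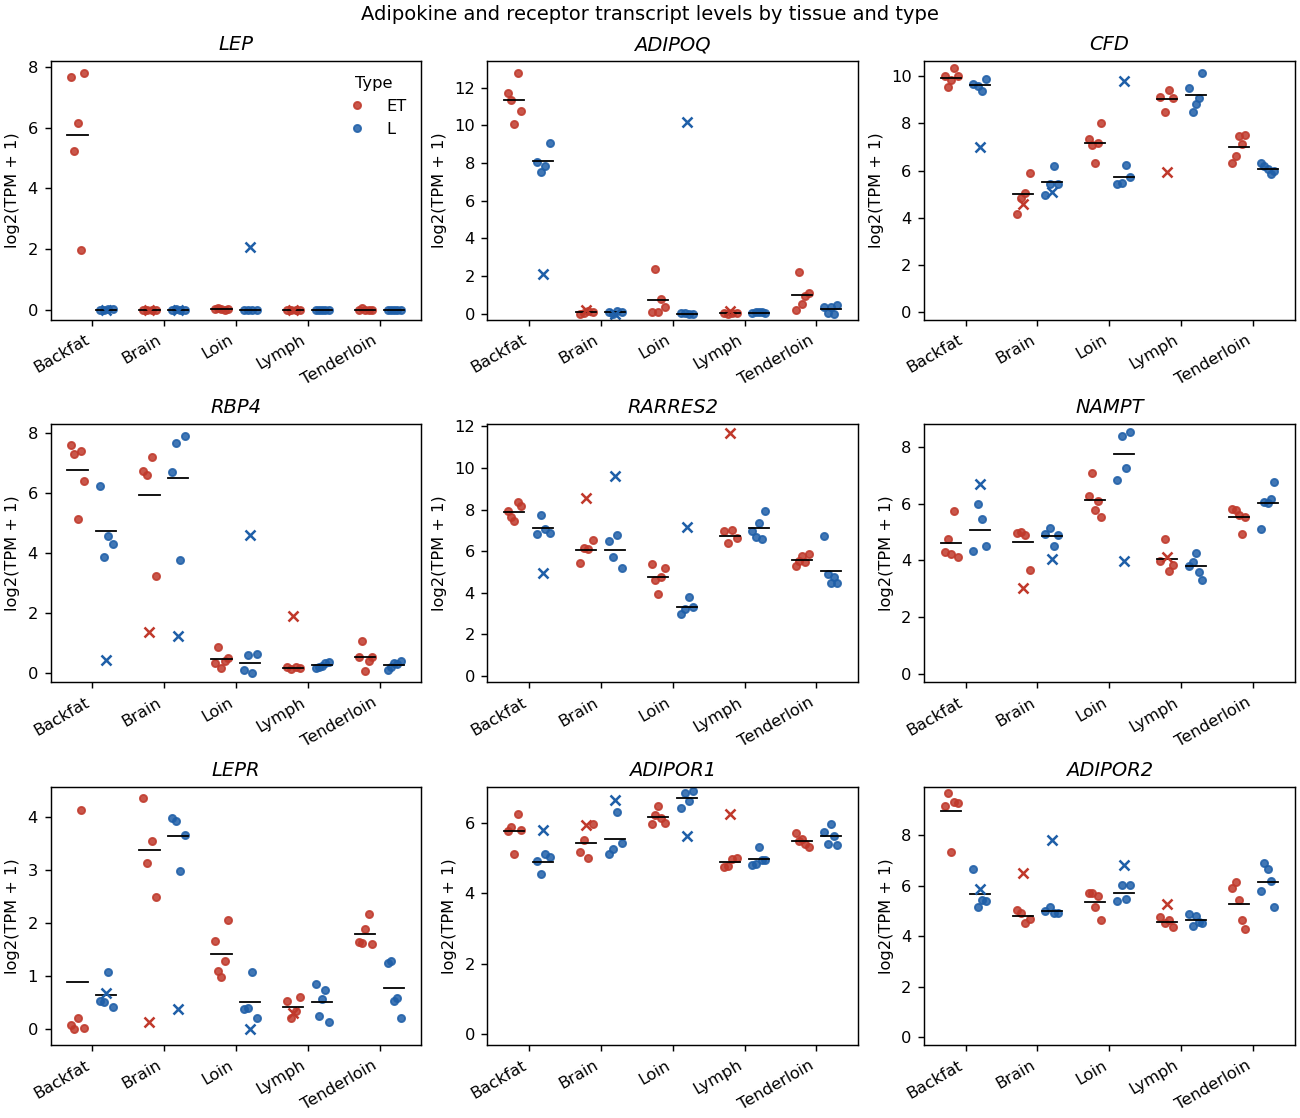
Level of each gene as log2(TPM + 1) in every library, by tissue, with ET in red and L in blue, horizontal bars at the mean of the kept libraries, and crosses for the 5 libraries that went against their tissue label. LEP rises from near 0 only in ET backfat and in 1 of the crosses. Among the kept libraries ADIPOQ stands apart in backfat and ADIPOR2 in ET backfat, CFD is high in backfat and lymph, and mean LEPR is highest in brain.

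Of the 90 gene-by-tissue-pair contrasts, 58 were called. Backfat differed from brain in 6 of 9 genes (77.1% of all genes tested), from loin in 8 (74.4%), from lymph in 7 (70.4%) and from tenderloin in 7 (74.5%). Brain differed from loin in 6 (85.4%), from lymph in 6 (73.1%) and from tenderloin in 5 (86.7%). Lymph differed from loin in 4 (79.6%) and from tenderloin in 6 (80.6%), and the muscles from each other in 3 (18.8%). Most genes differed in every pair but that of the muscles, so those counts show nothing particular to these 9. For the muscles, whether 3 of 9 differs from 18.8% was not tested. Scaling moved the median of all genes for brain minus tenderloin from 1.33 to 0.08, so tissue differences of this size that involve brain rest on it.

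In backfat, LEP, ADIPOQ, ADIPOR2 and RBP4 were higher in ET than in L animals, and no gene of the 9 was lower. These 4 of 9 called genes stand beside 7.53% of the 12110 genes tested that were called higher in ET (8.57% in either direction and 1.04% lower). LEP showed the widest gap. In ET backfat it was 202 TPM in S0235, 36.2 in S0242, 70.1 in S0276, 2.92 in S0309 and 220 in S0326. In L backfat it was listed at 0 in S0349 and S0377 and stood at 0.0281 in S0384 and 0.0242 in S0385. The groups did not overlap, and S0309 was far under the other ET animals. The fat-like library of the L animal S0355, labelled loin and left out, held LEP at 3.23 TPM, above S0309. The difference on the log2(TPM + 1) scale was 5.74 (SE 0.96, adjusted p = 0.00817), and 6.69 without S0309 (SE 0.52, adjusted p = 0.00253). LEP reached the mean of 1 TPM needed for a test only through the ET animals, and the L group lies at or near 0. The size of the difference therefore follows the value added before the log (8.83 with 0.1 in place of 1), and no fold is given.

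ADIPOQ in ET backfat was 3375, 2590, 1076, 6980 and 1706 TPM in the animals in the same order, S0235 to S0326. In L backfat it was 268 in S0349, 182 in S0377, 229 in S0384 and 539 in S0385. Among these libraries the lowest ET value was above the highest L value, and S0309, lowest for LEP, was highest for ADIPOQ. The fat-like library labelled loin of S0355 held ADIPOQ at 1139 TPM, above the ET animal S0276. The ET mean was 10.3 times the L mean, and the log2 difference was 3.20 (SE 0.50, adjusted p = 0.00668). RBP4 was 195, 159, 34.1, 169 and 84.4 TPM in the ET animals and 74.2, 13.7, 22.8 and 18.8 in the L animals. Here the groups overlapped, through the high L animal S0349 and the low ET animal S0276. The log2 difference of RBP4 was 2.03 (SE 0.57, adjusted p = 0.0491), and only 2 of 15 alternative settings kept the call, with adjusted p from 0.0111 to 0.120. Leaving out S0235, S0242, S0309, S0326, S0377, S0384 or S0385 ended it (adjusted p 0.0858 to 0.120).

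The other adipokines did not pass the test in backfat. CFD was 1030, 737, 916, 1287 and 1030 TPM in the ET animals and 809, 774, 655 and 945 in the L animals. These values overlapped, and the log2 difference was 0.32 (95% confidence interval -0.18 to 0.81, adjusted p = 0.402). RARRES2 was 240, 197, 172, 329 and 284 TPM against 113, 212, 134 and 115, and overlapped through S0377 (0.78, SE 0.27, adjusted p = 0.0933). NAMPT was 18.6, 25.9, 17.7, 53.2 and 16.5 TPM against 19.4, 62.9, 42.9 and 21.6, with both groups widely spread (-0.44, SE 0.42, adjusted p = 0.537).

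The receptors of backfat parted. ADIPOR2 was 562 TPM in S0235, 808 in S0242, 159 in S0276, 639 in S0309 and 614 in S0326, and 99.2 in S0349, 34.6 in S0377, 42.8 in S0384 and 41.1 in S0385. Every ET animal lay above every L animal, with S0276 the lowest of ET and S0349 the highest of L, and the fat-like library labelled loin of S0355 held 112. The ET mean was 10.2 times the L mean, with a log2 difference of 3.28 (SE 0.46, adjusted p = 0.00408). ADIPOR1 was 53.1, 57.9, 33.5, 74.9 and 54.0 TPM against 29.1, 22.2, 33.4 and 31.3. Its groups just failed to overlap and it missed the threshold (0.86, SE 0.25, adjusted p = 0.0576), which it passed without S0276 (1.02, adjusted p = 0.0179). In all, the groups did not overlap for 4 of the 9 genes, LEP, ADIPOQ, ADIPOR1 and ADIPOR2, and for 13.9% of all genes tested (11.9% with ET above L).

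LEPR in backfat was at or under 0.160 TPM in 4 ET animals and at 16.5 in S0309. In the L animals it was 0.444, 0.434, 1.12 and 0.343. The L animals thus lay above 4 of the 5 ET animals, and the test found no difference (0.25, SE 0.76, adjusted p = 0.870). Only S0309 brought the backfat mean of LEPR to the 1 TPM needed for a test, so the positive difference rests on that library. The sign turned with a pseudocount of 0.1 (-0.75, adjusted p = 0.769). The S0309 library also had the highest NAMPT of ET backfat and the highest summed skeletal muscle markers of its group (237 TPM, against 28.1 to 39.9 in the other ET animals). Among the L animals that sum was 39.3 to 446. The part of muscle RNA in these levels was not tested. LEP, ADIPOQ and ADIPOR2 were called in all 15 alternative settings, with log2 differences of 5.23 to 8.83, 2.84 to 4.402 and 2.97 to 3.68, and adjusted p of at most 0.0296, 0.0449 and 0.0196. None of these settings counted the fat-like library labelled loin of S0355 as L backfat.

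**Figure D2:**
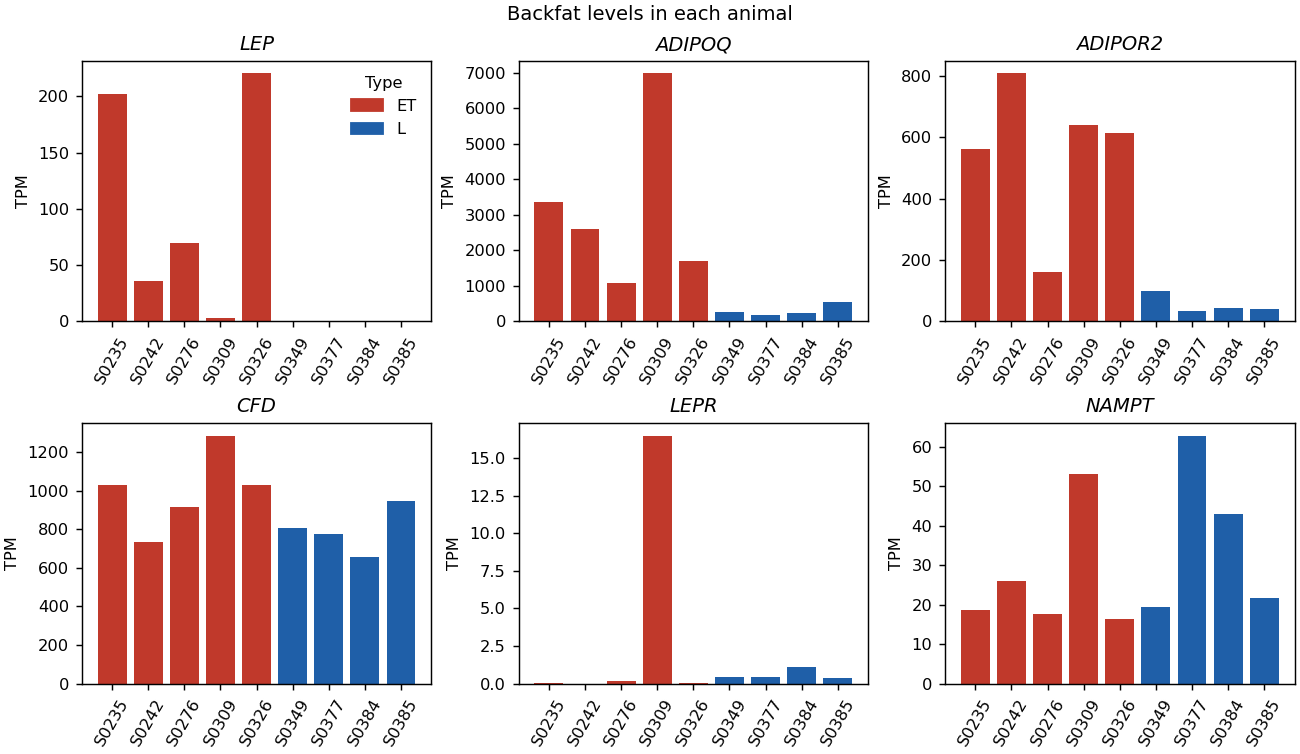
TPM of 6 of the genes in each of the 9 kept backfat libraries, with ET animals in red and L animals in blue and a separate axis for each gene. LEP, ADIPOQ and ADIPOR2 are higher in every ET animal than in any L animal, CFD is level across the animals, and LEPR stands out only in S0309.

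The ratio of the 2 adiponectin receptors was also compared between the types. In backfat ADIPOR2 TPM over ADIPOR1 TPM was 10.6, 13.9, 4.76, 8.53 and 11.4 in the ET animals and 3.41, 1.56, 1.28 and 1.31 in the L animals. The groups did not overlap, and the log2 ratio differed by 2.42. Its p of 0.0159 in a two-sided exact permutation test is the smallest that 5 against 4 animals can give. After adjustment over 10 such tests it was 0.0529 and missed the threshold. A single ratio at that smallest p cannot pass such an adjustment by itself, so the miss does not show that the types are alike. In the other tissues the ratio lay between 0.373 and 2.94 in every kept library, and the type differences in log2 ratio were 0.17 in loin, -0.73 in tenderloin, -0.10 in brain and 0.04 in lymph (exact permutation p of at least 0.159 in each).

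Genes that mark fat cells were higher in ET backfat as well. Of 20 adipocyte markers tested, 17 were called higher in ET (7.53% of all genes tested were) and none lower. Their median log2 difference was 3.56, where the median of all genes was 0.29. The count of called markers was 15 without S0309 and 14 with the backfat library of S0355 kept. The amine oxidase AOC3 (639 ± 338 against 26.5 ± 10.9 TPM), hormone-sensitive lipase LIPE (870 ± 304 against 53.8 ± 63.3) and the glucose transport protein TRARG1 (679 ± 303 against 35.2 ± 43.2) led them (SD, n = 5 and 4). FABP4, CIDEA and PCK1 did not pass. The summed level of the list was 11923 to 27468 TPM in ET and 847 to 10359 in L, and none of its members was at 0 in any of the 9 libraries. In bulk tissue, fewer fat cells and less RNA per fat cell cannot be told apart.

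The members were also set against that sum, in ratios chosen after the values were seen. None of the 5 passed the threshold after adjustment over the same 10 tests. A single ratio at the smallest p of the exact permutation test, 0.0159, cannot pass that adjustment by itself. For CFD and LEP, which lay at that p, the miss therefore does not show that the types are alike. CFD per summed adipocyte TPM was lower in ET by 2.12 log2 units (two-sided exact permutation p = 0.0159, adjusted p = 0.0529). LEP per 1000 TPM of the sum was 4.64 ± 3.56 in ET and 0.00287 ± 0.00383 in L (p = 0.0159 in the same exact test, adjusted p = 0.0529). The log2 ratios of ADIPOQ (0.76, exact p = 0.381), RBP4 (-0.36, exact p = 0.698) and ADIPOR2 (0.86, exact p = 0.222) did not differ beyond the spread between animals. FABP4 alone made up much of the sum, with 4472 to 11988 TPM in ET and 274 to 6817 in L.

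Other cell types moved with the types in backfat too. Of the fibroblast and matrix markers 4 of 6 were higher in ET, of the myeloid markers 4 of 10 and of the blood markers 2 of 3. Of the lymphocyte markers 3 of 5 were higher and 1, CD79A, was lower. Of all genes tested in backfat, 7.53% were called higher in ET and 1.04% lower. Summed blood markers were 94.96 to 647 TPM in ET and 2.92 to 67.5 in L, and summed matrix markers 7943 to 29837 and 1038 to 3855. Summed myeloid markers were 369 to 673 TPM in ET and 165 to 344 in L, and summed lymphocyte markers 25.3 to 41.7 and 25.1 to 40.2, with CD3E at 0 in 3 of the 4 L libraries. Limma called none of the 7 endothelial and 10 skeletal muscle markers tested, and 0 had an unadjusted p under 0.05. Their part in the differences of the 9 genes was not tested.

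The genes around each hormone mostly did not pass the test in backfat. Of all 12110 genes tested there, 8.57% were called in either direction. Whether the count of any list below differs from that share was not tested. None of 17 genes of leptin receptor signalling was called by limma, and 2 had an unadjusted p under 0.05 (median 0.13): STAT3 was 55.2 TPM in ET and 47.0 in L, JAK2 5.62 and 4.81, and SOCS3, the feedback inhibitor, 10.3 and 8.88. LEPROT, which is made from the LEPR locus and holds back receptor transport to the cell surface, was 99.4 and 50.2 TPM (adjusted p = 0.0712). Of 17 genes of adiponectin secretion and signalling 1 was called, ERP44, the chaperone that retains adiponectin in the secretory pathway (26.9 ± 8.55 against 13.8 ± 2.06 TPM, log2 difference 0.89, adjusted p = 0.0499). None of 3 chemerin receptors was called, with 0 at an unadjusted p under 0.05. Of 13 genes of the alternative complement pathway, C3AR1, the receptor of the C3a fragment, was called (14.1 ± 8.38 against 2.16 ± 2.04 TPM, adjusted p = 0.0200), while C3 itself was 19.0 and 16.7 TPM.

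Of 16 genes of retinol transport and retinoic acid 1 was called, the nuclear receptor RXRG (14.6 ± 6.71 against 2.64 ± 2.17 TPM, adjusted p = 0.0169). Of 18 genes of NAD salvage and use 3 were higher in ET, among them NMRK1, which makes the same NAD precursor from nicotinamide riboside (25.3 ± 14.5 against 4.81 ± 3.44 TPM, adjusted p = 0.0167), and PARP1, which uses NAD (27.3 ± 7.02 against 12.2 ± 1.89, adjusted p = 0.0261). Among 25 other fat-derived secreted proteins 4 were higher and 1 lower, and 5 were higher without S0309. SPARC, a collagen-binding matrix protein, led at 5291 ± 2301 against 501 ± 258 TPM (adjusted p = 0.00373), followed by C1QTNF6, a relative of adiponectin (57.4 ± 32.4 against 4.71 ± 2.63, adjusted p = 0.00677), and APLN, the ligand apelin (5.11 ± 2.06 against 0.390 ± 0.437, adjusted p = 0.0110). The protease DPP4 was the lower one (1.05 against 5.12 TPM, adjusted p = 0.0386). These list counts stand beside 7.53% of all genes tested in backfat that were called higher in ET and 1.04% called lower.

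**Figure D3:**
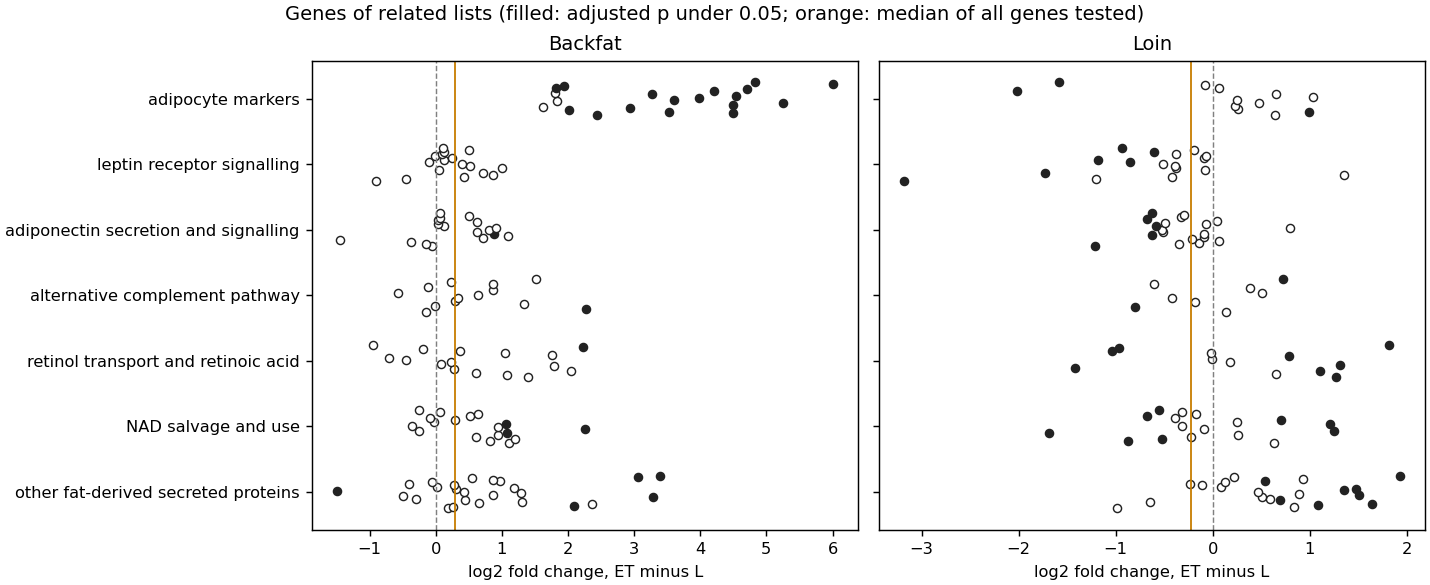
Log2 fold change, ET minus L, of each tested gene of 7 lists in backfat and in loin, with filled points for genes called by limma and an orange line at the median of all genes tested. In backfat the adipocyte markers reach from 1.62 (CIDEA) to 6.01 (THRSP) while the pathway lists lie around the median of all genes, and in loin the leptin and adiponectin lists hold called genes only below 0.

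In loin, the long back muscle, CFD, RARRES2 and LEPR were higher in ET and NAMPT and ADIPOR1 were lower. Of 6 genes tested 3 were called higher (6.17% of all 10571 genes tested) and 2 lower (25.2%), and 31.4% of all genes were called in either direction. CFD was 161 TPM in S0235, 134 in S0242, 79.4 in S0276, 143 in S0309 and 255 in S0326, and 41.9 in S0349, 43.4 in S0377, 74.4 in S0384 and 52.9 in S0385. No L animal reached the lowest ET animal, S0276, and the log2 difference was 1.46 (SE 0.29, adjusted p = 0.00529). RARRES2 was 40.7, 23.3, 14.6, 26.2 and 35.5 TPM in the ET animals and 6.77, 8.44, 13.1 and 9.05 in the L animals. It did not overlap either, and differed by 1.44 (SE 0.28, adjusted p = 0.00460). The groups did not overlap for these 2 of the 6 genes and for 25.4% of all genes tested (3.8% with ET above L).

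LEPR in loin was 2.16, 1.13, 0.968, 1.45 and 3.19 TPM in ET and 0.295, 0.324, 1.12 and 0.159 in L. The groups overlapped through S0276 and S0384 (0.90, SE 0.25, adjusted p = 0.0218), and the call was lost without S0377 or S0385 (adjusted p 0.0598 and 0.0645). LEPR reached the mean of 1 TPM needed for a test through the ET animals (mean 1.78 TPM, against 0.474 in L). Without S0326 it fell under that level and was not tested. NAMPT was 75.5, 136, 53.5, 66.9 and 45.2 TPM in ET against 113, 338, 154 and 373 in L. The ET animal S0242 lay above the L animal S0349, and the L mean was 3.24 times the ET mean (log2 difference -1.62, SE 0.39, adjusted p = 0.0115). ADIPOR1 was 61.9, 73.6, 87.0, 69.6 and 62.9 TPM in ET and 84.9, 114, 96.8 and 119 in L, with S0276 above S0349. Its log2 difference of -0.54 (SE 0.16, adjusted p = 0.0240) was lost under scaling (-0.32, adjusted p = 0.143) and without S0326, S0377 or S0385 (adjusted p 0.0615, 0.0740 and 0.0629). ADIPOR2 did not pass (41.7 ± 11.9 against 53.3 ± 12.9 TPM, adjusted p = 0.262).

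These loin calls rest on leaving out the loin library of S0355, which held ADIPOQ at 1139 TPM, a muscle marker sum of 42.5 TPM where the other loin libraries held 80768 to 147820. With it kept, none of the 6 genes was called by limma (LEPR 1.002, adjusted p = 0.0675). All-gene calls in loin were 652 higher and 2665 lower as deposited and 1107 and 1451 after scaling. ADIPOQ, not tested at its low level, was 0.0806, 4.20, 0.0602, 0.719 and 0.292 TPM in ET loin and at most 0.0210 in L. LEP was at most 0.0472 TPM in any kept loin library, and RBP4 at most 0.827.

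In tenderloin, the inner loin muscle, LEPR was the 1 gene of 6 called (1.63% of all 10851 genes tested in either direction, 1.4% higher in ET). It was 2.15, 2.07, 2.73, 3.50 and 2.07 TPM in ET and 1.37, 1.43, 0.442, 0.510 and 0.151 in L, in the order S0349, S0355, S0377, S0384 and S0385. The groups did not overlap, and the difference was 1.02 (SE 0.22, adjusted p = 0.0470). The means were 2.50 TPM in ET and 0.782 in L, so LEPR reached the 1 TPM needed for a test through the ET animals. Only 3 of 15 alternative settings kept the call, with adjusted p from 0.0365 to 0.137, and leaving out any 1 of S0235, S0242, S0276, S0309, S0326, S0377 and S0384 ended it (adjusted p 0.0620 to 0.137). CFD was 80.0, 97.9, 175, 137 and 182 TPM against 78.2, 73.1, 66.5, 56.3 and 62.9. It did not overlap either but missed the threshold (0.92, SE 0.23, adjusted p = 0.0630), which it passed without S0235 (1.09, adjusted p = 0.0364). Non-overlap thus held for 2 of 6 genes and for 5.24% of all genes tested (3.85% with ET above L).

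RARRES2 in tenderloin was 38.0 to 57.8 TPM in the 5 ET animals. In L animals it was 104 in S0349 and 29.0, 21.2, 25.9 and 21.3 in the others. The difference was 0.53 (adjusted p = 0.458), and without S0349 it was 0.94 and passed (adjusted p = 0.0303). NAMPT was 46.3 ± 10.2 TPM in ET and 68.7 ± 26.9 in L (-0.50, adjusted p = 0.341), and ADIPOR2 43.0 ± 22.2 and 76.0 ± 34.2 (-0.85, adjusted p = 0.261). ADIPOR1 was 44.0 ± 4.75 and 48.8 ± 8.85 (-0.14, adjusted p = 0.661).

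**Figure D4:**
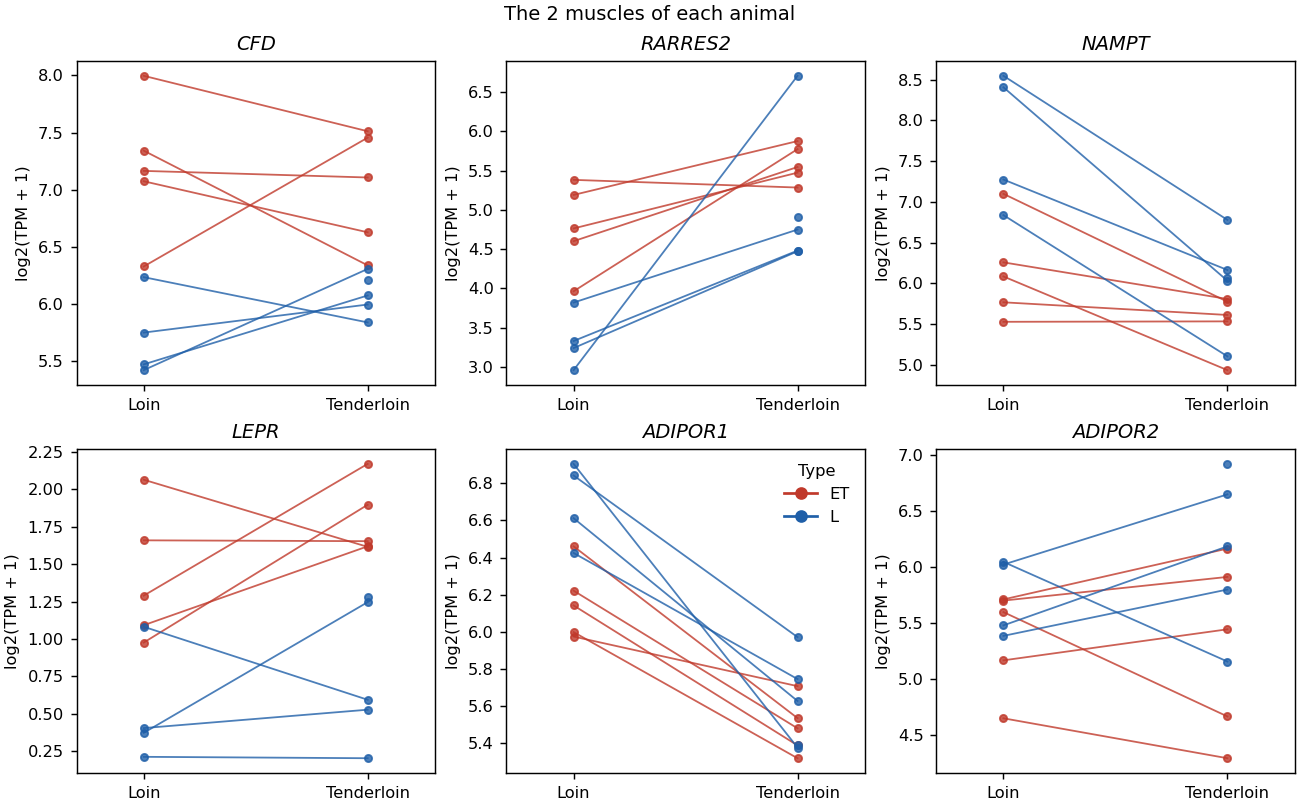
Levels as log2(TPM + 1) of 6 genes in loin and tenderloin, with a line for each animal that had both muscles (5 ET in red, 4 L in blue) and a lone point for the tenderloin of S0355. ADIPOR1 falls from loin to tenderloin in 9 of 9 animals, and the CFD points of ET lie above those of L in both muscles.

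Within the 9 animals with both muscles, ADIPOR1 was higher in loin in 9, NAMPT in 8, and RARRES2 was higher in tenderloin in 8. The tissue differences, loin minus tenderloin, were 0.84 (adjusted p = 0.000303), 1.11 (adjusted p = 0.00359) and -1.22 (adjusted p = 0.000828). With all 5 off-tissue libraries kept in this fit over all tissues, NAMPT (0.80, adjusted p = 0.215) and RARRES2 (-0.89, adjusted p = 0.399) lost the call. CFD was higher in loin in 5 animals and LEPR in 4, and neither was called.

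Around these genes, the loin held called members of the leptin and adiponectin pathways that were all lower in ET, where the median of all genes was -0.23. Of 17 leptin receptor signalling genes 6 were lower (median -0.42), led by the insulin receptor substrate IRS2 (3.62 ± 0.946 against 14.7 ± 5.03 TPM, adjusted p = 0.00163), the phosphatase PTPN11 (23.6 ± 5.02 against 55.2 ± 15.2, adjusted p = 0.00313) and STAT5B (57.0 against 111, adjusted p = 0.00472). Of 19 adiponectin pathway genes 5 were lower (median -0.33), with the fatty acid oxidation brake ACACB (16.2 ± 2.79 against 41.5 ± 18.9, adjusted p = 0.00896) and the AMP-activated kinase genes PRKAG1 (adjusted p = 0.0174) and STK11, its activating kinase (adjusted p = 0.0111). These shares stand beside the 25.2% of all genes called lower.

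NAD genes went both ways in loin, 3 of 17 higher, led by NMNAT3 of mitochondrial NAD synthesis (20.8 ± 3.37 against 8.34 ± 2.64 TPM, adjusted p = 0.00316), and 5 lower, led by the deacetylase SIRT2 (62.1 ± 5.55 against 99.8 ± 9.21, adjusted p = 0.00494) and NADK (10.1 ± 1.92 against 19.5 ± 5.60, adjusted p = 0.0101). Retinoic acid genes did too, 5 of 12 higher, led by ALDH1A1 (14.2 ± 4.34 against 5.21 ± 1.302 TPM, adjusted p = 0.00360), and 3 lower, led by RXRB (15.9 ± 1.01 against 32.4 ± 5.63, adjusted p = 0.00213) and RXRA (49.0 ± 15.8 against 97.9 ± 6.40, adjusted p = 0.00660). Of 21 other fat-derived secreted proteins 8 were higher and 0 lower in limma, led by SPARC (140 ± 55.9 against 34.7 ± 8.08 TPM, adjusted p = 0.00163), FSTL1 and FBN1. Of all genes tested in loin, 6.17% were called higher in ET and 25.2% lower.

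Markers of other cells differed between the types in loin as well. All 6 fibroblast and matrix markers were higher in ET (summed 161 to 930 TPM against 125 to 231), as were both blood markers tested (summed 28.8 to 92.0 against 3.10 to 12.7) and 2 of 7 myeloid markers (summed 23.6 to 52.1 against 13.6 to 28.0). Of 12 adipocyte markers 1 was higher and 2 were lower, the lipases PNPLA2 (87.0 ± 22.1 against 260 ± 58.7 TPM) and LIPE (13.9 ± 7.02 against 61.2 ± 36.8). PLIN1 was at most 1.94 TPM in every kept loin library. In tenderloin 4 of 6 matrix markers were higher, limma called none of the 17 leptin and 19 adiponectin pathway genes (2 and 3 at an unadjusted p under 0.05), and RARG was 1 of 2 retinoic acid genes called higher (6.55 ± 1.098 against 3.03 ± 0.406 TPM, adjusted p = 0.0167). The part of these cells in the levels of CFD, RARRES2 and LEPR was not tested.

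In brain and lymph none of the members was called between the types. Limma called 0 of 7 in brain and 0 of 5 in lymph, and 0% of all genes in both. At an unadjusted p under 0.05, 1079 genes passed in brain and 525 in lymph, and 0 members in each. LEPR in brain was 19.6, 7.85, 10.8 and 4.61 TPM in ET (S0242, S0276, S0309 and S0326) and 14.8, 14.2, 6.91 and 11.7 in L (S0349, S0377, S0384 and S0385), which overlapped (95% confidence interval of the log2 difference -1.16 to 0.66). CFD in lymph ran from 352 to 682 TPM in ET and from 359 to 1128 in L (interval -0.83 to 0.46). RARRES2 in lymph was 108 ± 21.6 TPM in ET and 146 ± 61.9 in L, and NAMPT 16.4 ± 6.60 and 13.1 ± 3.51.

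**Figure D5:**
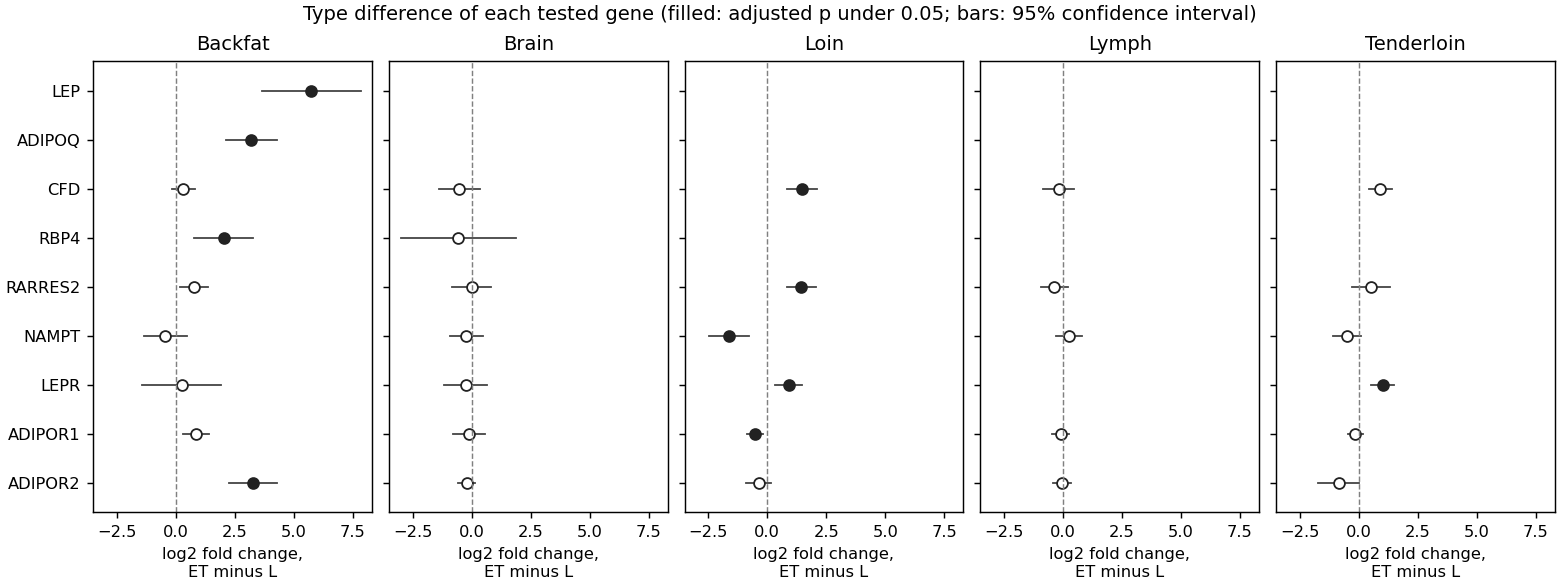
Log2 fold change, ET minus L, of each tested gene in the 5 tissues, with bars for the 95% confidence interval and filled points for genes called by limma. The positive calls of LEP, ADIPOQ, RBP4 and ADIPOR2 lie in backfat, loin holds calls on both sides of 0, and brain and lymph hold none.

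The type difference was unequal across the 5 tissues for 6 of the 9 genes in a test of the interaction (21.7% of all 13445 genes tested). ADIPOR2 (F = 21.9, adjusted p = 4.24e-07), LEP (F = 25.6, adjusted p = 9.43e-08) and ADIPOQ (F = 12.3, adjusted p = 7.20e-05) gave the smallest adjusted p, and CFD (F = 6.77, adjusted p = 0.00385), ADIPOR1 (F = 6.62, adjusted p = 0.00433) and RARRES2 (F = 4.11, adjusted p = 0.0361) followed. LEP and ADIPOQ entered this test only through backfat, since their means in the other tissues were at most 0.0155 and 0.722 TPM. Their interactions therefore mainly restate the backfat difference. ADIPOR2 was 3.28 higher in ET backfat while its estimates in the other tissues were -0.05 to -0.85. CFD had its called difference in loin and estimates of 0.32 in backfat and -0.19 in lymph, the tissues where it was most abundant. ADIPOR1 was 0.86 in backfat and -0.54 in loin, and its interaction was lost under scaling (adjusted p = 0.180). With the off-tissue libraries kept, the interactions of ADIPOQ (adjusted p = 0.0670), CFD (0.338), ADIPOR1 (0.295) and RARRES2 (0.889) were lost. That of RARRES2 was kept in 8 of 16 alternative settings and lost without S0235, S0242, S0309, S0326, S0377 or S0385 (adjusted p 0.0575 to 0.113). NAMPT missed the threshold (adjusted p = 0.0660) but passed with the animal as a replicate block (adjusted p = 0.0348) and without S0349 (adjusted p = 0.0224). LEPR (adjusted p = 0.369) passed without S0309 (adjusted p = 0.0137), and RBP4 (adjusted p = 0.111) without S0384 (adjusted p = 0.0260).

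Over the 45 libraries, the genes whose log2 level ran closest to each member were found by Pearson's r, given as a description since the libraries share tissues and animals. ADIPOQ ran with ADIG (r = 0.99) and CIDEA (r = 0.98), both of fat cells, and with the entry APOL6 (r = 0.97). LEP ran with the entries RDHE2 (0.94), PLPL3 (0.93) and OPRX (0.88), and ADIPOR2 with LIPS, the entry of LIPE (0.92), DGAT2 (0.89) and RDH5 (0.89). CFD ran with EPCR (0.93), CD209 and CA054 (0.92), RBP4 with SMKR1 (0.96), and RARRES2 with FOLR1 (0.94). The closest to NAMPT were ZFAN5 (0.91) and the proteasome entries PSD11 (0.91) and PSMD7 (0.91), to LEPR ANR50 (0.91) and LGR4 (0.90), and to ADIPOR1 STK40 (0.87). Within the 9 backfat libraries ADIPOR2 ran closest to FITM2, a protein of lipid droplet formation (r above 0.99), ALDOC (0.99) and SPRC, the entry of SPARC (0.99), and LEP to LY66E (0.96), TET5B (0.96) and CP4B1 (0.96).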

How the data were processed

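Per the labels' protocols, RNA was isolated by TRIzol and sequenced from libraries of a stranded mRNA kit. The submitters' processing notes list Trimmomatic 0.36, Salmon 1.10.0 and the pig build Sscrofa11.1, without saying what the build served for. The authors deposited TPM of 57085 assembled transcripts, with each library summing to 1000000. Per the file headers, a second deposited table gives each transcript's best BLASTX hit and predicted protein.

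TPM was summed per Swiss-Prot entry name for hits with an E value of at most 1e-10 (32153 transcripts, 14412 genes). Left out were 20601 transcripts without a hit, 1864 with a larger E value, 2442 that hit repeat proteins and 25 that hit proteins from outside animals. The tests were two-sided limma fits (version 3.58.1, R 4.3.3) with a variance trend on log2(TPM + 1), over genes averaging 1 TPM or more, with Benjamini-Hochberg adjustment over all of them. A fold change on this scale understates that of low genes. Tissue pairs had the type as a term, and the interaction was an F test of 4 terms. Ratios were compared by exact permutation (scipy 1.17.1). The fits were tested on simulated data. Alternatives were a pseudocount of 0.1, no filter, median-ratio scaling, 1 transcript per gene, an E value of at most 1e-50, the off-tissue libraries kept, each animal left out, and the animal as a block.

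The members, the gene lists and the tests were chosen with earlier results of these data known. All members are named, with up to 3 called genes per list and comparison by smallest p among those with a mean of at least 5 TPM, and the 3 genes closest in pattern; some of these are left unnamed, and genes named beyond this rule (DPP4 and list members given as values) were chosen after their values were seen. The same animals gave all tissues, per the labels, so animal numbers pair libraries across tissues. Deviations from group means correlated between loin and tenderloin of an animal with a median r of 0.45 (range 0.35 to 0.61, 9 pairs). Between animals it was -0.14 (36 pairs). Over all tissues the median r was lower, at 0.15 within an animal (range -0.12 to 0.61, 84 pairs) and -0.05 between animals of a type (320 pairs). ET and L share no animals, so the type comparisons within a tissue have no block. Positions are those of RefSeq's Sscrofa11.1.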

Additional observations from a re-analysis of the deposited data

Results flagged for a closer look

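Of the groups of a gene, tissue and type, 68 had a highest value of at least 1 TPM, and groups under that level were not counted. In 10 of these 68, 1 library stood far from the rest by Dixon's ratio at the 95% critical value. The ratio is the gap to the nearest neighbour over the range of the group. A rule at that level marks about 1 group in 20 by chance, and these groups share animals and libraries. In backfat these were S0309 among ET animals for LEPR (16.5 TPM, others at most 0.160) and NAMPT (53.2, others 16.5 to 25.9). Among L animals they were S0349 for RBP4 (74.2, others 13.7 to 22.8) and ADIPOR2 (99.2, others 34.6 to 42.8), and S0384 for LEPR (1.12, others 0.343 to 0.444). The ET animal S0242 had the highest ADIPOQ of its type in loin (4.20 TPM, others 0.0602 to 0.719) and in tenderloin (3.64, others 0.134 to 1.13). RARRES2 was highest in the tenderloin of the L animal S0349 (104, others 21.2 to 29.0), ADIPOR1 in the lymph of the L animal S0377 (38.5, others 26.9 to 29.8), and NAMPT lowest in the brain of the ET animal S0326 (11.7, others 29.1 to 30.7).

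The type difference varied between the tissues in the interaction test for LEP (F = 25.6), ADIPOR2 (F = 21.9), ADIPOQ (F = 12.3), CFD (F = 6.77), ADIPOR1 (F = 6.62) and RARRES2 (F = 4.11). For LEP and ADIPOQ this mainly restates the backfat difference, since both averaged under 1 TPM in every other tissue.

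The libraries left out because they went against their tissue label held members above the range of the kept libraries of that tissue. The loin library of the L animal S0355 had ADIPOQ at 1139 TPM, CFD at 892, RARRES2 at 140, RBP4 at 23.5 and LEP at 3.23. Its LEP stands beside at most 0.0281 TPM in the 4 kept L backfat libraries. The lymph library of the ET animal S0235, which held the kidney gene UMOD at 2156 TPM, had RARRES2 at 3298 TPM and RBP4 at 2.76. The brain libraries with high MBP had RARRES2 at 381 TPM (S0235) and 774 (S0355), against 36.0 to 108 in the kept ones, and S0355 had ADIPOR2 at 221.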

How the results depend on the processing

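Of 1734 values of single members under the alternatives, 1611 kept their direction and side of the threshold, 71 lost a call, 16 gained one and 36 changed sign. LEP, ADIPOQ and ADIPOR2 in backfat held under all 15 alternatives run. None of these counted the fat-like library labelled loin of S0355 (LEP 3.23, ADIPOQ 1139 and ADIPOR2 112 TPM) as L backfat. With the animal as a replicate block, 57 tissue contrasts of the members were called in place of 58 and 7 interactions in place of 6: CFD in backfat minus lymph was lost (0.59, adjusted p = 0.0507), NAMPT gained its interaction (F = 4.09, adjusted p = 0.0348), and no other call changed. Depth is unknown, so genes under 1 TPM were compared as values only.

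Members called in loin fell from 5 to 0 with the off-tissue library kept and ranged from 3 (without S0326, S0377 or S0385) to 5 when an animal was left out. Without S0326, LEPR in loin was too low to be tested. In tenderloin the 1 called member became 0 with a pseudocount of 0.1, no filter, scaling, 1 transcript per gene and the stricter E value, and ranged from 0 to 2 (without S0349) when an animal was left out. Interaction calls fell to 2 with off-tissue libraries kept. Over all genes, the 1038 backfat calls became 658 with 1 transcript per gene and 573 with the off-tissue library, and 316 (S0384), 381 (S0326), 480 (S0235), 546 (S0377) and 666 (S0385) without an animal, up to 1374 without S0276. The 3317 loin calls became 721 with the off-tissue library, and, when an animal was left out, 1913 (S0377) and 2106 (S0326), up to 3339 (S0384). The 177 tenderloin calls became 105 with scaling, 48 with 1 transcript per gene and 117 with the stricter E value. Without an animal they were 5 (S0377), 22 (S0326), 73 (S0355), 80 (S0276), 85 (S0242), 100 (S0309), 114 (S0384) and 374 (S0385). The 2922 interaction calls became 1003 with off-tissue libraries and 3859 with the animal as a replicate block, and ranged from 1582 (without S0377) to 3131 (without S0355) when an animal was left out. Brain gained 1 call with 1 transcript per gene; lymph gained 2 with no filter and had 0 to 1 when an animal was left out. Higher against lower calls moved with scaling from 912 and 126 to 497 and 254 in backfat, and from 152 and 25 to 73 and 32 in tenderloin.

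Apart from RARRES2 in brain against tenderloin, which was called in both directions (-0.74 under scaling), and ADIPOR1 in backfat against brain, called only under scaling (0.62), no sign change concerned a called value. For ET minus L these were LEPR in backfat (-0.75 with a pseudocount of 0.1), ADIPOR1 in brain (0.0788 under scaling, -0.30 to 0.14 without an animal), and in brain without an animal RBP4 (-1.48 to 0.33), NAMPT (-0.34 to 0.10), LEPR (-0.58 to 0.0499) and RARRES2 (-0.28 to 0.24, and -0.20 with off-tissue libraries). In lymph they were ADIPOR1 (0.0041 under scaling, 0.18 with off-tissue libraries), ADIPOR2 (0.0452 and 0.0916 in turn, and -0.11 to 0.0215 without an animal), RARRES2 (0.63 with off-tissue libraries) and CFD (-0.37 to 0.0457 without an animal). Between tissues they were RBP4 in backfat minus brain (0.35 under scaling, 0.0887 with off-tissue libraries, -0.88 to 0.0842 without an animal), ADIPOR2 in brain minus lymph (-0.25 under scaling), RARRES2 in backfat minus lymph (-0.12 with off-tissue libraries), ADIPOR1 in brain minus tenderloin (0.0800 with off-tissue libraries) and backfat minus brain (-0.27 to 0.0523 without an animal), NAMPT in backfat minus brain (-0.0064 to 0.23), and CFD in loin minus tenderloin (0.31 with off-tissue libraries, -0.16 to 0.0827 without an animal). The cause of these changes was not tested.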
